A study of Mus musculus with 15 samples.

Results

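The Reg family is a group of small secreted proteins that carry a C-type lectin-like fold. The 7 mouse genes Reg1, Reg2, Reg3a, Reg3b, Reg3d, Reg3g and Reg4 were examined here in liver carcinomas of mice given carbon tetrachloride (CCl4), a solvent that the liver converts into a toxic radical. Members were chosen by gene symbol, as every non-control probe of the array that carried one of these 7 names. This gave 7 probes, 1 for each gene, among 55681 different non-control probes. The family itself was selected on these data, since levels on these arrays were known when the list was drawn up. Its fold changes are therefore given as a description and carry no p-value.

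Total RNA of 15 whole carcinomas had been hybridised to 1-colour mouse expression arrays, with 5 arrays in each of 3 groups. Tumors of p53LKO mice, in which Trp53 is deleted in the liver, were hepatocellular carcinomas (HCC) on 5 arrays and intrahepatic cholangiocarcinomas (ICC), a cancer with bile duct features, on another 5. The control group held 5 HCC of p53f/f mice, which carry the floxed Trp53 alleles without the deletion, and came from 4 animals, since mouse 3717 gave a pair of tumors. All mice of the 3 groups were males on a C57/BL6J background and were injected with 0.5 µl CCl4 per g body weight for 16 weeks, from 6 weeks of age, every 3 days per the labels and 2 times a week per the study's methods. The study took mice at set ages and followed p53f/f mice, whose tumors came later, to an older age. The age at which each tumor on the arrays was taken, and the promoter that drives the Cre, are not given in the sources used here, so age and genotype cannot be told apart in the HCC comparison. Mice 3731, 3733, 3976 and 5283 contributed both an HCC and an ICC. Because RNA came from whole carcinoma tissue, fewer cells of a type and less RNA per cell cannot be told apart.

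Reg proteins are best known from the gut and the pancreas. Reg1 and Reg2 are made by pancreatic acinar cells, and the first Reg protein was described in regenerating islets. Reg3b and Reg3g are released by intestinal epithelium and keep bacteria away from the mucosal surface, and their genes are switched on by interleukin-22 and interleukin-6 type cytokines through the transcription factor STAT3. The human counterpart of this subfamily was first found in a hepatocellular carcinoma, and Reg4 belongs to the secretory cells of the colon.

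Of the 7 genes, 6 lie next to each other on chromosome 6, in the order Reg3b, Reg3d, Reg3a, Reg2, Reg1 and Reg3g, with 1 annotated pseudogene between the last pair, and Reg4 lies on chromosome 3. The 250 bases before the annotated start of Reg3b, Reg3g, Reg1 and Reg2 are shown because the first 3 were the members with high levels in ICC and the fourth, the neighbour of Reg1, was not measured above background on any array. The sequences are from RefSeq on GRCm38.p6 and read 5′ to 3′ on the strand of the gene, with capitals marking TATAAA, its reverse complement and the STAT palindrome TTCNNNGAA. They cover chr6:78370635-78370884 (Reg3b, plus strand), chr6:78468875-78469124 (Reg3g, minus strand), chr6:78425733-78425982 (Reg1, plus strand) and chr6:78404905-78405154 (Reg2, plus strand).
Reg3b: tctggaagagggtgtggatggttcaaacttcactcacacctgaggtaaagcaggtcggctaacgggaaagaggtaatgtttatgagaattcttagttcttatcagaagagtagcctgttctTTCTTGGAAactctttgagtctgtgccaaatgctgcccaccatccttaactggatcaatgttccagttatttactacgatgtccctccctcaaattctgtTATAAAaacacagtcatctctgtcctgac
Reg3g: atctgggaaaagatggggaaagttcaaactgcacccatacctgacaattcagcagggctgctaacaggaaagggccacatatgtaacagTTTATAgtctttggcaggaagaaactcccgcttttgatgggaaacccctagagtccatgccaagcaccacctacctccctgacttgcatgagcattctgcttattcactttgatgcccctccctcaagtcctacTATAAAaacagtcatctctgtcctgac
Reg1: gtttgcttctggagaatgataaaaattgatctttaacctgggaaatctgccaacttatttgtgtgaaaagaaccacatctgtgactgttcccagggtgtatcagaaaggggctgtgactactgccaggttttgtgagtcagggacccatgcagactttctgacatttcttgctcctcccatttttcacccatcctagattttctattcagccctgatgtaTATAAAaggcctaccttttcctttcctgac
Reg2: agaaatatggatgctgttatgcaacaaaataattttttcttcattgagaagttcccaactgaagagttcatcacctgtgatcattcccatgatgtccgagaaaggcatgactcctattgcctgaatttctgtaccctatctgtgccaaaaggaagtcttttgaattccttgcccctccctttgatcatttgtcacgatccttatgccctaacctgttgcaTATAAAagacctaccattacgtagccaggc

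TATAAA began 29 bases before the start of Reg3b, 27 before that of Reg3g and 30 before those of Reg1 and Reg2. Reg3g also held the letters on the opposite strand, TTTATA, from 161 bases before its start. No match to TATAAA on either strand was found in the windows of Reg3a, Reg3d and Reg4. Among all 32851 promoter windows of this length, 12.4% held TATAAA on either strand. The STAT palindrome TTCNNNGAA, which reads the same on both strands, occurred in Reg3b as TTCTTGGAA from 129 bases before the start and in Reg3d as TTCCCAGAA from 238 bases before the start. It was present in 7.02% of all windows. Reg3b, with a match, was among the members with high levels in ICC and Reg3d, also with a match, was not, while Reg3g and Reg1 lacked these letters in the window.

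The last 20 bases before the start, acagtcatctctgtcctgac, were identical in Reg3b and Reg3g. In the other 20 pairs of members the longest shared run was between 6 and 12 bases. The first 30 bases of the 60-base probes of the 3 members with high levels in ICC are shown because near-identical probes could have reported 1 transcript under several names.
Reg3b: gtgaagactcacctagaaaaagcattttct
Reg3g: gagtacagaattgacatcatgggttgatat
Reg1: ggaccatctatcaaaagcaaattagatcct

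Over the whole 60 bases, no pair of the 7 member probes shared a run longer than 7 bases. The probes lie on mm9, the build of the array design, at chr6:78323323-78323382 for Reg3b, chr6:78416420-78416479 for Reg3g and chr6:78378527-78378586 for Reg1. Those of Reg3d, Reg3a and Reg2 lie at chr6:78325868-78325927, chr6:78333635-78333694 and chr6:78357959-78358018, and the design gave no position for the Reg4 probe. Which exon each probe falls in was not analysed here.

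Levels below are log2 signals minus the 75th percentile of all non-control probes on the same array, so that 0 stands for that percentile. A probe was counted as measured on an array when the scanner software called it well above background. Between 37.0% and 70.1% of probes passed this mark, and the share was lowest on arrays in the lower rows of the slides, which held all 5 ICC and, of the p53LKO HCC, those of mice 3976 and 5283. On the other arrays values under background therefore reach lower numbers, and such values have no order. Different probes are not compared in level. As a check of the labels, the only probe named Trp53 was examined. It was at -1.27 to -0.68 in p53f/f HCC, -3.86 to -2.75 in p53LKO HCC and -4.19 to -2.31 in ICC. It was well above background on 5, 3 and 1 of the 5 arrays of these groups, so some p53LKO values are under background. The lowest level measured on a p53LKO array was at most -2.13, so that every p53LKO tumor was below every control. The array design places this probe on another chromosome than the gene, and its place relative to the deleted part was not analysed here.

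Reg3b and Reg3g, the antibacterial lectins of the gut, were at high levels in all ICC. In HCC of both genotypes Reg3b was under background on all arrays and Reg3g on most of them. Reg3b was at 6.73, 8.35, 4.92, 7.25 and 7.67 in the ICC of mice 3731, 3733, 3976, 3977 and 5283. In p53LKO HCC of mice 3976, 5283, 3731, 3733 and 3975 it was at -5.23, -4.19, -7.13, -6.94 and -5.26, and none of these 5 values was well above background. In p53f/f HCC, the tumors of mice 3681, 3715 and 3716 had levels of -6.68, -5.62 and -6.35 and the pair of mouse 3717 -6.26 and -6.95, again all under the mark. Every ICC lay far above every HCC, and the tumor of mouse 3976 was the lowest of the ICC.

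The mean level of Reg3b was 6.98 ± 1.29 (SD, n = 5) in ICC against -5.75 ± 1.25 (SD, n = 5) in p53LKO HCC, a fitted log2 fold change of 12.73 (SE 0.70). Since no HCC value was measured, the level was at least 2070.5-fold higher in ICC, taking for each HCC array the lowest level measured on it or the probe's own level where that was higher. Against p53f/f HCC, which differ from the ICC in both genotype and tumor type, it was at least 2643-fold higher by the same reckoning.

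Reg3g was at 6.40, 7.96, 6.09, 7.58 and 8.20 in the ICC of mice 3731, 3733, 3976, 3977 and 5283. In p53LKO HCC it was at -5.15, -4.13, -3.78, -5.16 and -4.33 in mice 3976, 5283, 3731, 3733 and 3975, with the tumors of mice 3731 and 3975 well above background. In p53f/f HCC it was at -6.73 in mouse 3681, -1.50 in mouse 3715, -4.43 in mouse 3716, and -6.24 and -7.01 in the tumors of mouse 3717. Unlike Reg3b, Reg3g was thus measured in 3 of the 10 HCC, and among these the tumor of mouse 3715 had the highest level, still below all ICC.

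The ICC mean of Reg3g was 7.25 ± 0.95 (SD, n = 5) and that of p53LKO HCC -4.51 ± 0.62 (SD, n = 5). The fitted log2 fold change was 11.76 (SE 0.45), or 10.90 when the 3 HCC values under background were raised to the lowest level measured on their arrays. Both lectins were lowest in the ICC of mouse 3976, whereas Reg3b was highest in mouse 3733 and Reg3g in mouse 5283.

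Reg1, a regenerating protein of the exocrine pancreas, was the third member with raised levels in ICC, where it was at 2.45, 1.74, 0.21, 0.27 and -1.11 in mice 3731, 3733, 3976, 3977 and 5283. In p53LKO HCC of mice 3976, 5283, 3731, 3733 and 3975 its level was -5.15, -4.14, -4.77, -5.02 and -4.93, and it was measured in the tumor of mouse 3731 alone. In p53f/f HCC it was at -4.32, -4.25 and -3.59 in mice 3681, 3715 and 3716 and at -3.96 and -4.81 in mouse 3717, with 3 of 5 well above background. All ICC exceeded all HCC, but the order of the ICC differed from that of Reg3b and Reg3g, since mouse 5283 had the highest Reg3g and the lowest Reg1 level.

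Mean Reg1 was 0.71 ± 1.40 (SD, n = 5) in ICC and -4.80 ± 0.39 (SD, n = 5) in p53LKO HCC, with a fitted log2 fold change of 5.51 (SE 0.57). It was 4.67, or 25.4-fold, when HCC values under background were set to the lowest measured level of their arrays. In p53f/f HCC the mean was -4.19 ± 0.45 (SD, n = 5).

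**Figure D1:**
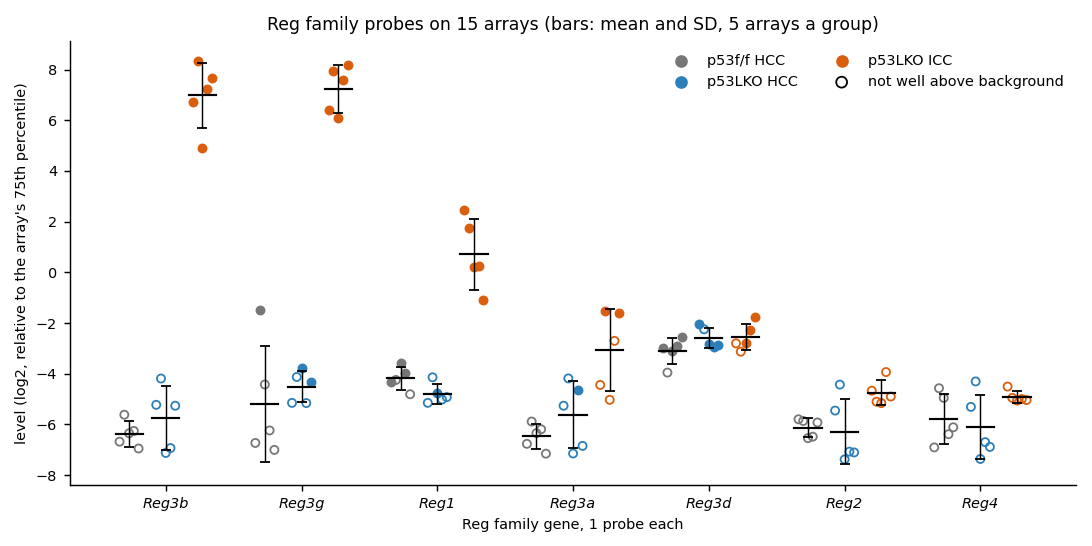
Levels of the 7 Reg probes (log2, minus the 75th percentile of the array) on 15 arrays, with filled points for values well above background, open points for the others, and bars for the mean and SD of the 5 arrays of a group. Reg3b, Reg3g and Reg1 lie higher in every ICC than in every HCC, Reg3a is measured in 2 ICC, and Reg3d lies in the same range in all 3 groups.

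Reg3a, a further lectin of the Reg3 branch, was measured in only some ICC. Its level was -1.53 in mouse 3733 and -1.61 in mouse 5283, both well above background, and -4.44, -5.03 and -2.70 in mice 3731, 3976 and 3977, where it was not. Among p53LKO HCC it was at -5.27, -4.19, -7.15 and -6.85 in mice 3976, 5283, 3731 and 3975, all under background, and at -4.63 and just measured in mouse 3733. It was not well above background in any p53f/f HCC, where values ran from -7.16 to -5.89. With 2 measured ICC, 1 measured p53LKO HCC and 0 measured p53f/f HCC, the probe did not reach the 3 arrays of a group required for a fit. The ICC with measured Reg3a, of mice 3733 and 5283, were those with the highest Reg3b and Reg3g levels.

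Reg3d, a member of the Reg3 branch described in the pancreas, was the most widely measured gene of the family, on 11 of 15 arrays, and its levels in the 3 groups overlapped. In ICC of mice 3731, 3733, 3976, 3977 and 5283 it was at -2.80, -3.13, -2.78, -2.28 and -1.77. In p53LKO HCC of mice 3976, 5283, 3731, 3733 and 3975 it was at -2.05, -2.25, -2.83, -2.93 and -2.89. In p53f/f HCC it was at -2.99, -3.96 and -3.12 in mice 3681, 3715 and 3716 and at -2.90 and -2.56 in mouse 3717. The values of the p53f/f HCC of mouse 3715, the p53LKO HCC of mouse 5283 and the ICC of mice 3731 and 3733 were not well above background. The ranges of the groups overlap.

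Group means of Reg3d were -2.55 ± 0.53 in ICC, -2.59 ± 0.41 in p53LKO HCC and -3.10 ± 0.52 in p53f/f HCC (SD, n = 5 each). The fitted difference between ICC and p53LKO HCC was 0.04 (SE 0.28) on the log2 scale, and it lay between -0.40 and 0.41 under other ways of processing, so no direction is given.

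Reg2, the close relative of Reg1, and Reg4, the colonic member, were not well above background on any of the 15 arrays. Reg2 values ran from -5.16 to -3.94 in ICC, from -7.38 to -4.43 in p53LKO HCC and from -6.55 to -5.80 in p53f/f HCC. Reg4 values ran from -5.06 to -4.51, from -7.37 to -4.31 and from -6.91 to -4.57 in the same groups. Since all these are values under background, no fold change is given, and lower amounts than the arrays can measure were not detectable.

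The first comparison sets HCC of p53LKO mice against HCC of p53f/f mice, in which genotype cannot be told apart from age. Array position differed too, since the lower rows held the p53LKO HCC of mice 3976 and 5283 but no p53f/f HCC. Slide 1 held every p53f/f HCC except tumor 2 of mouse 3717, and its only p53LKO HCC were those of the lower row. Differences below are therefore not assigned to the deletion alone. Of the 7 members, 2 were measured on enough arrays to be fitted, Reg1 and Reg3d. Calls required a limma adjusted p under 0.05 together with more than a 2-fold difference, and for members they serve as a description. Neither gene was called. Across all genes, 5.19% were called higher in p53LKO HCC and 10.8% were called lower. Reg1 was well above background on 1 of 5 p53LKO HCC and 3 of 5 p53f/f HCC. The lowest level that the p53LKO arrays could measure lay on average above the p53f/f mean, so no fold change and no direction are given for Reg1 here. Reg3d had a log2 fold change of 0.52 (SE 0.28), and with quantile normalization and spike-in scaling it was called higher, at 1.06 and 1.16. Reg3b and Reg3g were not fitted here, being measured on 0 and 2 p53LKO HCC and on 0 and 1 p53f/f HCC.

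The comparison of p53LKO ICC with p53LKO HCC, which shares the p53LKO HCC arrays with the previous one, asks how the tumor types differ on the same genetic background. Here 4 members were fitted and Reg1, Reg3b and Reg3g were called higher in ICC, where 13.2% of all genes were called higher and 15.2% lower. In these 3 members every ICC lay above every HCC, as in 10.9% of all genes tested. The family was put forward for this contrast, so nothing is read from these counts. Reg2, Reg3a and Reg4 did not reach the required number of arrays.

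In mice that gave both tumor types, the ICC value of Reg3b, Reg3g and Reg1 exceeded the HCC value of the same animal in each case. The log2 difference of Reg3b was 13.9, 15.3, 10.2 and 11.9 in mice 3731, 3733, 3976 and 5283. The difference of Reg3g in the same mice was 10.2, 13.1, 11.2 and 12.3. That of Reg1 was 7.21, 6.76, 5.36 and 3.03. The measured ICC levels of each gene lay above the HCC value in all 4 animals. Since most of the HCC values are under background, among them all of Reg3b, the sizes of these differences are set in part by the background of the HCC array and are not compared between animals.

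**Figure D2:**
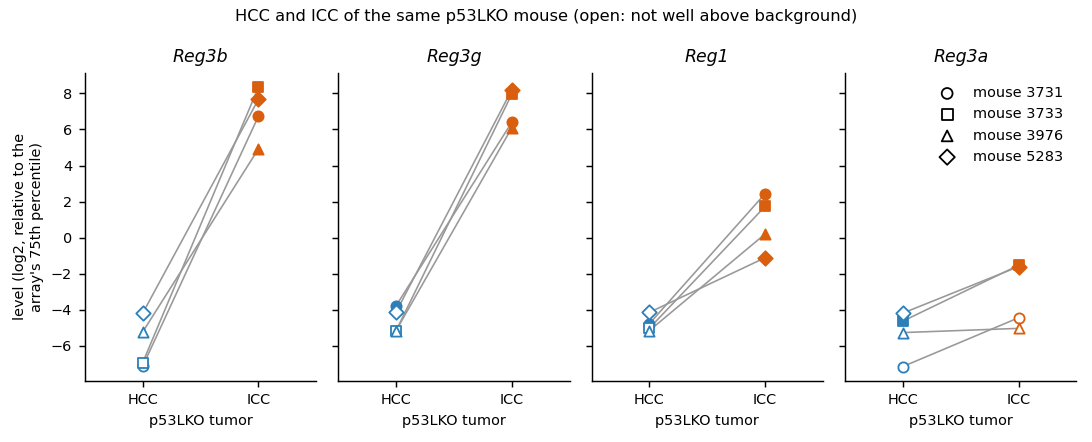
Levels of Reg3b, Reg3g, Reg1 and Reg3a (log2, minus the 75th percentile of the array) in the HCC and ICC of the same p53LKO mouse, with 1 line for each of 4 mice and open symbols for values not well above background. For Reg3b, Reg3g and Reg1 all 4 lines run upward from HCC to ICC and most of the HCC symbols are open.

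Array position was not balanced between the tumor types. Within the lower rows, which held 2 p53LKO HCC and all 5 ICC, none of the 3 genes was measured in the HCC. Against the lowest levels measured on those HCC arrays, ICC were higher by at least 9.65 for Reg3b, 9.91 for Reg3g and 3.37 for Reg1 on the log2 scale. On slide 1, with the same 2 HCC and 1 ICC, the bounds were 9.40, 9.06 and 5.11. On slide 2, with 3 HCC and 4 ICC, the bound was 11.99 for Reg3b, which was measured in 0 of these HCC. There Reg3g, measured in 2 of the 3 HCC, differed by 11.76 and Reg1, measured in 1, by 5.10, with the unmeasured HCC values raised to the same limit. With the slide as a block in the fit the log2 fold change was 12.92 for Reg3b, 11.65 for Reg3g and 5.71 for Reg1. This fit takes HCC values under background as they are.

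The genes around the family were described through a list of 30, comprising cytokines that induce Reg genes, their receptors, carriers and feedback genes of the STAT3 pathway, and Extl3 and Egfr, which have been proposed as receptors for Reg proteins. In p53LKO HCC against p53f/f HCC, 27 of the 30 were tested, 4 rose, 2 fell and 21 were not called. The median log2 fold change of the list was 0.16, beside 0.06 over all genes tested. In p53LKO ICC against p53LKO HCC, again 27 were tested, 6 rose, 2 fell and 19 were not called, with a median of 0.06 beside -0.17 over all genes.

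Among the ligands, Il22, the cytokine best known for inducing Reg3 lectins, fell in ICC. Its level was -3.09 ± 0.30 in ICC and not well above background on any of the 5 arrays, against -1.42 ± 0.34 in p53LKO HCC, where all 5 were measured (SD over 5 arrays; limma adjusted p = 0.000239). It was thus at least 2.45-fold lower in ICC. With normexp background correction Il22 had a log2 fold change of -0.84 and was not called. In p53LKO HCC against p53f/f HCC its log2 fold change was 0.54 (SE 0.19, limma adjusted p = 0.0514).

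Il22ra1, the epithelial subunit of the interleukin-22 receptor, changed in both comparisons by its brighter probe. It rose in p53LKO HCC, to -0.46 ± 0.81 from -2.25 ± 0.25 in p53f/f HCC (SD over 5 arrays), with 1.79 as its log2 fold change (SE 0.35, limma adjusted p = 0.00313), which was 0.99 and not called with normexp. The log2 fold change between the HCC groups was 2.10 with the row as a block in the fit and 1.57 with the slide as a block. In ICC, Il22ra1 was not well above background on any array and was at least 4.79-fold lower than in p53LKO HCC (limma adjusted p = 0.000388). A dimmer second probe of the gene was not called, with log2 fold changes of -0.14 in the HCC comparison and -0.93 in the ICC comparison. Hepatocyte markers were lower in ICC as well, as given below, and their part in the Il22ra1 values was not tested.

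Several inflammatory ligands were higher in ICC than in p53LKO HCC. Il11, a cytokine of the interleukin-6 family, rose by 1.90 (SE 0.20, limma adjusted p = 9.4e-05) and Tnf, tumor necrosis factor, by 2.26 (SE 0.47, limma adjusted p = 0.00355) on the log2 scale. Il11 was measured on 3 of the 5 p53LKO HCC and Tnf on 4. The rises were 1.63 and 2.06 with HCC values under background raised to the lowest level measured on their arrays. Il23a, a subunit of interleukin-23, was called higher (limma adjusted p = 0.00216) but measured on 3 ICC and 1 HCC arrays. Its fitted log2 fold change was 3.20 (SE 0.61), or 1.91 with HCC values under background raised to the lowest level measured on their arrays. Il6 itself was not called, with a log2 fold change of 0.85 (SE 0.37, limma adjusted p = 0.0852) in this comparison and -0.23 (SE 0.40, limma adjusted p = 0.690) in p53LKO HCC against p53f/f HCC.

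Within the signalling branch, Socs3, a feedback inhibitor induced by STAT3, rose in ICC to 3.72 ± 0.15 from 2.07 ± 0.48 in p53LKO HCC (SD over 5 arrays), with 1.65 as its log2 fold change (SE 0.23, limma adjusted p = 0.000374). In p53LKO HCC against p53f/f HCC it was -0.12 (SE 0.33) and not called. Stat3 was not called in either comparison, with log2 fold changes of 0.06 (SE 0.21) in ICC and 0.26 (SE 0.16) in p53LKO HCC, and its second probe gave 0.52 and -0.28.

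On the receptor side, Osmr, the oncostatin M receptor, and Il1r1, the interleukin-1 receptor, rose in p53LKO HCC against p53f/f HCC, by 1.71 (SE 0.37, limma adjusted p = 0.00546) and 1.29 (SE 0.27, limma adjusted p = 0.00413) on the log2 scale. Egfr, the epidermal growth factor receptor, fell by 1.86 (SE 0.33, limma adjusted p = 0.00191), and 2 further probes of the gene fell by 2.05 and 2.03. With the row as a block the log2 fold changes were 1.69 for Osmr, 1.35 for Il1r1 and -2.04 for Egfr. With the slide as a block they were 1.59, 1.16 and -1.85. The part of age in these differences was not tested. Extl3, a heparan sulfate enzyme described as a binding partner of Reg proteins, differed by 0.55 (SE 0.19, limma adjusted p = 0.0408), under the fold limit, and by -0.12 (SE 0.20) in ICC against p53LKO HCC. The remaining calls of the list, chosen for naming after their values were seen, were Il10rb higher and Lif lower in p53LKO HCC, and Il1b and Pim1 higher in ICC. Lif was measured on 2 of the 5 p53LKO HCC. With values under background raised to the lowest level measured on their arrays, it was at least 1.43-fold lower there.

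**Figure D3:**
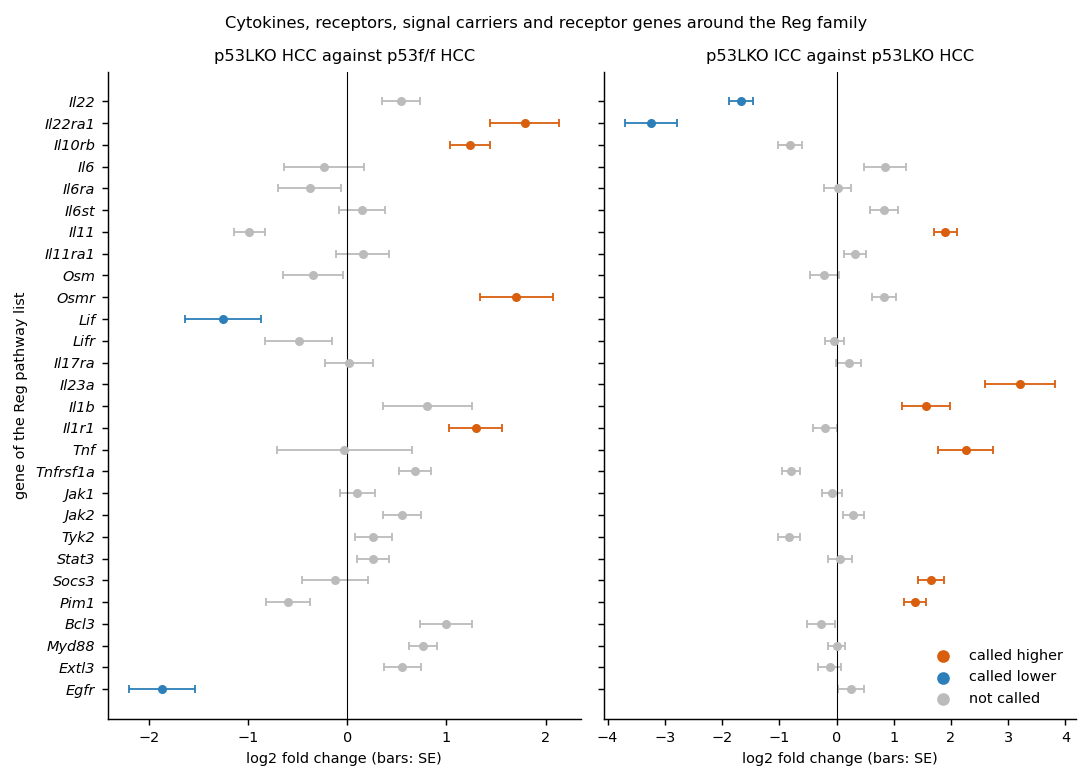
Log2 fold changes with their SE for the genes of the Reg pathway list that were tested in p53LKO HCC against p53f/f HCC (left) and in p53LKO ICC against p53LKO HCC (right), 5 arrays a group, coloured by call. Il22 and Il22ra1, which were not measured in ICC, lie to the left there, where the text gives at least 2.45-fold and 4.79-fold lower, while Il11, Il23a, Tnf and Socs3 lie to the right.

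The tumor labels were checked against cell type markers. In ICC against p53LKO HCC, 7 of 12 hepatocyte genes fell and 0 rose, and 4 of the 8 biliary genes tested rose, namely Krt7, Krt19, Epcam and Spp1. Hepatocyte genes were nonetheless well above background on every array, and their summed log2 level was 9.38 to 10.74 in ICC, 11.1 to 11.6 in p53LKO HCC and 11.5 to 12.3 in p53f/f HCC. The summed biliary level was 6.07 to 7.18, 2.49 to 3.42 and 2.22 to 4.83 in the same groups. The summed biliary level was thus higher in ICC, as were Reg3b, Reg3g and Reg1, and the summed hepatocyte level was lower. The part of these lists in the Reg levels was not tested.

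Reg proteins are made by pancreatic acinar cells and by intestinal epithelium, so markers of these tissues were set beside them. Of 30 acinar genes on the array, 16 were not well above background on any ICC, among them the digestive enzyme genes Prss2, Cpa1, Cpb1, Cela2a and Pnlip and the acinar transcription factor gene Ptf1a, while 9 were measured on all 5 ICC. These 9, named like the genes before them after their values were seen, were Amy2a5, Ctrb1, Cel, Clps, Rnase1, Gp2, Sycn, Rbpjl and Spink3. All of these but Rnase1, Gp2 and Rbpjl were measured on every HCC array as well. Acinar genes measured on all 5 arrays of a group numbered 9 in p53LKO HCC and 15 in p53f/f HCC. The number of acinar genes measured was 10 to 14 in ICC, 9 to 21 in p53LKO HCC and 15 to 20 in p53f/f HCC. The summed acinar level was 8.15 to 8.94 in ICC against 4.01 to 5.84 in p53LKO HCC and 4.35 to 7.21 in p53f/f HCC. Without Gp2, left out after its values were seen, the sum over the other 29 genes was 2.95 to 4.46 in ICC, 4.01 to 5.83 in p53LKO HCC and 4.34 to 7.20 in p53f/f HCC, so the higher sum of ICC rested on that gene. Of 10 islet genes, 8 were not measured on any ICC, among them Gcg, Iapp, Ppy and Pdx1, which were not measured on any HCC either. Ins2, an insulin gene, was measured on all 15 arrays. Nkx6-1 was measured on 2 ICC, 4 p53LKO HCC and 5 p53f/f HCC. The summed islet level ran from -0.25 to 1.27 in ICC, from 0.13 to 1.58 in p53LKO HCC and from 0.71 to 1.25 in p53f/f HCC.

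In ICC against p53LKO HCC, 3 of the 17 acinar genes tested rose and 4 fell, with a median of -0.46. Gp2, a membrane glycoprotein of secretory granules, rose by 11.87 (SE 0.45) and Rnase1, a secreted ribonuclease, by 3.32 (SE 0.35). Cela1, an elastase, fell by 4.93 (SE 0.47) and Bhlha15, a transcription factor of secretory cells, fell by 3.06 (SE 0.66; limma adjusted p for these 4 genes between 3.4e-07 and 0.00389), with the Bhlha15 call lost when the row was a block, at -2.54. Gp2 and Rnase1 were each measured on 3 of the 5 p53LKO HCC, and Cela1 on 3 of the 5 ICC. With values under background raised to the lowest level measured on their arrays, the changes were 11.37 for Gp2, 2.99 for Rnase1 and -4.59 for Cela1. In p53LKO HCC against p53f/f HCC, 1 of 20 acinar genes rose and 4 fell, with a median of -0.35. The one called higher was Gp2, at least 1.93-fold since no p53f/f HCC was measured, but this call was made in 9 of the 18 settings that tested it and was lost with normexp, at 0.23, with the slide as a block, without a filter and with the tumors of mouse 3717 averaged, among others. Pnlip, Klk1 and Rbpjl were among those called lower. Pnlip, not measured in p53LKO HCC, was at least 1.29-fold lower, and its call was lost with normexp. Klk1 had a log2 fold change of -1.45 and was called in 16 of 23 settings, losing its call with the row as a block, quantile normalization and spike-in scaling (-0.80), among others. Rbpjl had a log2 fold change of -1.36, and its call was lost with normexp (-0.85), quantile normalization (-0.84) and spike-in scaling (-0.72).

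Of 20 genes on the array from a list of intestinal secretory and absorptive markers, 14 were tested in ICC against p53LKO HCC, where 5 rose and 3 fell with a median of 0.59. Fcgbp, a mucus protein, was measured on all 5 ICC and 1 HCC and rose by 9.07 (SE 0.57), or by 8.14 with HCC values under background raised to the lowest level measured on their arrays. Mmp7, a matrix protease of Paneth cells that also activates defensins, rose by 8.94 (SE 0.70), and Cdh17, an intestinal cadherin, by 4.24 (SE 0.88). With the same limit they rose by 8.83 and 3.63. Tff3, a goblet cell trefoil peptide, fell by 4.70 (SE 1.31; limma adjusted p for these 4 genes between 4.9e-06 and 0.0145), and its call was lost with the row as a block, at -1.55. Between 11 and 13 of the 20 genes were measured in ICC, 8 to 16 in p53LKO HCC and 10 to 13 in p53f/f HCC, and the summed level ran from 7.85 to 8.33, 6.76 to 8.67 and 6.77 to 8.76. The mean level over the 20 genes takes values under background as they are. It ran from -0.56 to 0.04 in ICC, -1.71 to -0.78 in p53LKO HCC and -2.19 to -1.49 in p53f/f HCC. Of these genes, 7 were measured on no ICC array, 4 on no p53LKO HCC array and 5 on no p53f/f HCC array. The higher mean of every ICC is thus set in part by array background, and no order is read from it. In p53LKO HCC against p53f/f HCC, Vil1, an actin-binding protein of microvilli, and Cdx1, an intestinal transcription factor, were called higher among 14 genes and 0 were called lower, with a median of 0.44. Vil1 levels ran from -3.21 to 5.49 in p53f/f HCC and from 4.17 to 6.14 in p53LKO HCC, and its call was made in 10 of 23 settings and lost with the slide or the row as a block, among others. Cdx1 was not measured in any p53f/f HCC, which leaves at least 1.17-fold, and its log2 fold change was 0.01 with no call under normexp. Islet genes gave 0 calls by limma among 4 tested in each comparison, with 2 and 0 at an unadjusted p under 0.05. The 2, Ins1 and Ins2, passed the adjusted threshold in p53LKO HCC against p53f/f HCC, with limma adjusted p of 0.0025 and 0.0026. They did not pass the fold limit, at log2 fold changes of -0.995 and -0.93. Ins1 was measured on 3 of the 5 p53LKO HCC. With values under background raised to the lowest level measured on their arrays, Ins1 was 1.31-fold lower. The lowest level measured on the array of mouse 5283, -2.13, lay above every p53f/f value of Ins1, so these values have no order. The part of these tissues' genes in the Reg levels was not tested.

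**Figure D4:**
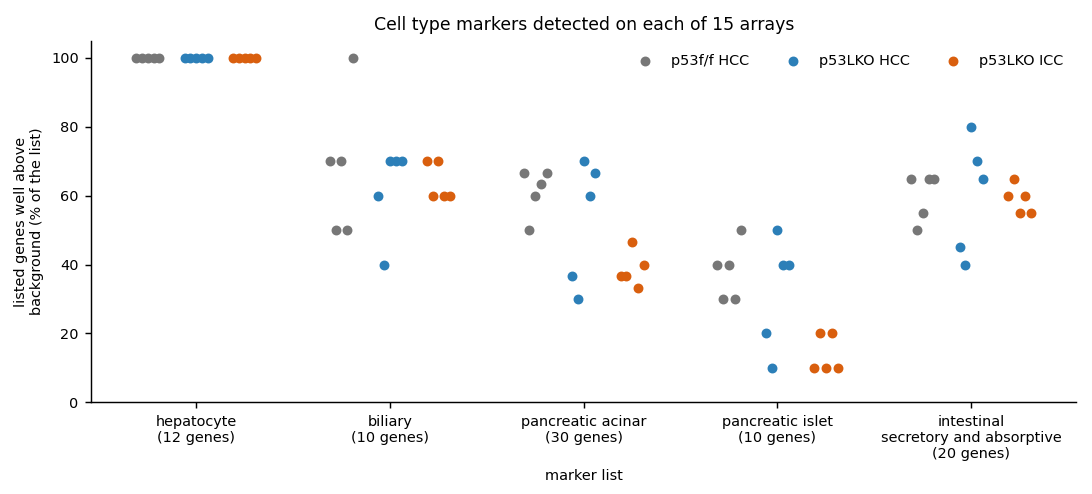
Share of each marker list that was well above background (percent of the listed genes on the array) on every array, coloured by group, with 1 point for each of 15 arrays. All hepatocyte genes are measured on all arrays, while acinar and islet genes are measured least often on ICC arrays and on the pair of p53LKO HCC arrays of the lower rows.

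Genes with the most similar profile were sought for the 2 members measured on the most arrays, Reg3d and Reg1, by Pearson's r of levels over the 15 arrays against 18049 other genes. All correlations are a description without a test, and arrays of a group share slide rows and background. The genes most like Reg3d were Camk1 (r = 0.80), Prob1 (0.78), Foxp1 (0.77), Gm34006 (0.77) and Unc45a (0.76), and with group means taken out r lay between 0.69 and 0.80. Of these, Prob1 was measured on 5 HCC and 0 ICC and Gm34006 on 7 HCC and 1 ICC, the others on all arrays. Those most like Reg1 were Birc2 (r = 0.97), Slurp1 (0.96), Mcpt4 (0.95), Mfap5 (0.95) and Tslp (0.95). With group means taken out their r was between 0.39 and 0.74. All were measured on 5 ICC, but Slurp1 on 7 HCC, Mfap5 and Tslp on 4 each and Mcpt4 on 2, so part of r comes from values under background.

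The same search for Reg3b and Reg3g was added after their values were seen. For Reg3b it returned 1700016F12Rik, Dmbt1, Rasgef1a, Gp2 and Akr1cl, with r of 0.98 to 0.99 that was 0.32 to 0.82 with group means taken out. Of these, 4 were not measured in any HCC and all were measured in every ICC, as Reg3b was. For Reg3g it returned Gp2, Stra6, Spib, Garnl3 and 1700016F12Rik, with r of 0.97 to 0.98 that was 0.24 to 0.72 with group means taken out. In HCC, Spib was measured on 10 arrays, Garnl3 on 9, Gp2 on 3, Stra6 on 1 and 1700016F12Rik on 0. Dmbt1, a scavenger receptor protein of mucosal surfaces, had a mean level of 5.67 in ICC and -5.83 in p53LKO HCC, and Spib, a transcription factor of lymphoid and intestinal M cells, 6.39 and -1.88. Gp2 was the gene common to both results together with 1700016F12Rik.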

How the data were processed

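Total RNA of 15 mouse liver carcinomas was labelled with Cy3 and hybridised to 1-colour Agilent 8x60K arrays. The deposited scanner files, made by the authors with Agilent Feature Extraction 10.7.3.1, hold background-corrected intensity for 62976 spots, and probe positions on mm9. A table that the authors deposited, of log2 values centred on each probe's median over 10 arrays, served only as an alternative for the HCC comparison. Each array's percentage of probes well above background stands in the results for depth; the number of arrays limits precision.

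Spots of a probe were averaged, log2 values were taken and each array's 75th percentile over non-control probes was subtracted. Probes that passed the scanner's background mark on 3 or more arrays in either group entered limma 3.58.1 (R 4.3.3; lmFit, eBayes) with Benjamini-Hochberg adjustment over 36082 probes for p53LKO HCC against p53f/f HCC and 32669 for p53LKO ICC against p53LKO HCC. Calls needed more than a 2-fold difference besides an adjusted p under 0.05. Gene counts used the probe of highest mean level for each symbol. The fit was tested on simulated data. The replicates are separate tumors, and the pair from mouse 3717 is not independent. The mouse numbers of the labels pair 4 HCC with 4 ICC of the same animals. Deviations from group means correlated between -0.14 and 0.07 in these pairs, and between -0.26 and 0.28 in the other 21. Figures used matplotlib 3.10.9.

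Members and gene lists were chosen with earlier results of these data known. Named genes were all member probes, Il22, Il22ra1, Il6, Stat3, Socs3 and Extl3, and for each list and comparison up to 4 called genes of largest fold change. A mean over the tumors of mouse 3717 was added after seeing the data.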

Additional observations from a re-analysis of the deposited data

Results flagged for a closer look

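Dixon's test for a value far from the rest of its group of 5 was applied to 96 groups, of which chance flags about 1 in 20, and 2 stood apart. In p53LKO ICC, Reg4 was at -4.51 in the tumor of mouse 3731 and between -5.06 and -4.96 in the others, all not well above background. In p53f/f HCC, Il6 was at -3.99 in the tumor of mouse 3715 and between -2.37 and -1.88 in the other 4, and the value of mouse 3715 was not well above background.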

How the results depend on the processing

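The log2 fold change of ICC against p53LKO HCC ran from 9.26 (normexp) to 13.25 for Reg3b, from 9.28 (normexp) to 12.13 for Reg3g and from 3.03 (normexp) to 5.96 for Reg1 over 21 settings. These members were chosen on this contrast and passed the filter through ICC alone, so their calls are no sign of stability. A filter on every array of both groups left 0 of these members to be called, since none of them was measured on every HCC array, and gave 2 Reg pathway, 1 acinar and 5 intestinal calls where the main setting gave 8, 7 and 8. Without a fold limit the pathway had 13 calls. Mouse number as a random replicate block gave 3 Reg, 8 pathway, 7 acinar and 8 intestinal calls, the same as without the block. For p53LKO HCC against p53f/f HCC this block could not be fitted and was not run, since 1 mouse alone gave more than 1 tumor.

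In that comparison the Reg family had 0 calls, and 1, Reg3d, with quantile normalization and with spike-in scaling. The pathway had 6 calls, and 12 with spike-in scaling and without a fold limit. The acinar list had 5 calls, and 1 with normexp, 2 with quantile normalization, 2 with spike-in scaling, 3 with the filter on every array of at least 1 group, 1 with that of both groups, 3 without a filter, 3 with the row as a block and 3 with the mean of the tumors of mouse 3717. The intestinal list had 2 calls, and 1 with quantile normalization, 4 with spike-in scaling, 1 with each of the filters on every array, 1 without a filter and 1 with the mean for mouse 3717. Leaving out each replicate gave 2 to 6 acinar and 0 to 3 intestinal calls. The intestinal count was 0 without the p53LKO HCC of mouse 3731, 3733 or 3975, and 1 without p53f/f HCC replicate 1, 4 or 5 (mouse 3681 and the tumors of mouse 3717) or the p53LKO HCC of mouse 3976 or 5283. The acinar count was 2 without p53f/f HCC replicate 1 or 5 and 3 without replicate 4. The cause was not tested.

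Scaling moved all genes together. The median log2 fold change over all genes in p53LKO HCC against p53f/f HCC was 0.06, and 0.71 with spike-in scaling and -0.18 with the percentile over probes measured on all arrays. Calls higher and lower were 926 and 1925, against 5263 and 904, and 439 and 2704. In ICC against p53LKO HCC the median was -0.17, with 2233 higher and 2579 lower, against 0.20 with 3248 and 1402 for that percentile, and -0.32 for spike-in scaling. The Reg3d calls with spike-in scaling are relative to that shift.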
